A study of Mus musculus with 65 samples.

Results

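The results below describe 10 transcription factor genes of hair cell fate and survival, of 55292 gene symbols in the table, in single outer hair cells (OHCs) of the mouse cochlea at postnatal day 10. The genes were taken by name: Atoh1, Pou4f3, Gfi1, Barhl1, Lhx3, Isl1, Gata3, Insm1, Ikzf2 and Lbh. Each library is 1 OHC picked by hand, and full-length cDNA was made without molecular identifiers. The 48 WT cells carried a FlpO recombinase at Slc26a5, the gene of the OHC motor protein prestin (Slc26a5FlpO/+), and a nuclear green reporter that FlpO switches on (Rosa26FSF-H2BEGFP/+). The 17 cells of the Casz1 CKO group carried the same driver and reporter, a Cre allele of Atoh1 (Atoh1Cre/+) and floxed alleles at both copies of Casz1, which encodes a zinc finger transcription factor. Cre was therefore present in 1 group only, and Slc26a5 expression was a condition for a cell of either group to be picked. The labels name no animal or litter, so each genotype counts as 1 sample. Cells of 1 sample are not replicates, and the genotypes are therefore compared by values and ranges, without p-values.

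Hair cells form when ATOH1, a basic helix-loop-helix factor, starts the program in progenitors of the cochlea, and Atoh1 is silenced as the cells mature. POU4F3 and GFI1 act next and are needed for hair cells to survive, with BARHL1, LHX3, ISL1 and GATA3 among the homeodomain and zinc finger factors of the maturing cell. INSM1, IKZF2 and LBH are linked to the outer type of hair cell: INSM1 acts for a short time in newborn OHCs and holds back inner hair cell (IHC) genes, IKZF2 drives OHC maturation, and LBH is a cofactor enriched in OHCs.

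Values are counts per 1000000 counts (CPM), either per cell or from counts summed over a group. Total counts per cell ran from 7458126 to 17107710 in WT and from 8239671 to 15320549 in CKO-labelled cells. Casz1 itself stood at 53.3 CPM in WT and 46.2 CPM in CKO-labelled cells, and counts over the whole gene do not check a deletion of some exons. The word "labelled" is kept for that reason, since the genotype is known from the labels alone. All 13 genes of a hair cell list reached 5 CPM, among them Myo7a and also Slc26a5, whose expression was a condition for picking. The groups also differed in sex: the female-type pattern (at least 10 counts of Xist and under 10 of 4 Y-linked genes) was found in 9 of 48 WT and 15 of 17 CKO-labelled cells, and the reverse in 37 and 0. The remaining cells of each group fit neither pattern. WT cells further fell into runs of cell numbers that differ in mt-Co2, with 33.5 to 83.6 CPM per cell in cells 1 to 11, 229 to 644 CPM in cells 12 to 45 and 100 to 111 CPM in cells 46 to 48. CKO-labelled cells held 94.8 to 283 CPM. Genotype, sex and these runs cannot be told apart in the pooled values, so values against each run and between Xist-pattern cells stand beside those of most factors. Of the 9 Xist-pattern WT cells, 8 were among cells 1 to 11 and 1 was among cells 12 to 45. The Xist-pattern comparison and that against cells 1 to 11 thus share most of their cells and are not separate checks.

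Per length, Pou4f3 was the most abundant of the 10 in both groups. Its median per kb of merged exon was 382 CPM among WT cells and 336 CPM in the CKO-labelled group, and it exceeded the next gene in the order in every cell (48 of 48 and 17 of 17). In WT cells the order of medians per kb went on with Gata3 (95.2), Isl1 (48.9), Lbh (45.8), Gfi1 (39), Lhx3 (24.7), Ikzf2 (23.6) and Barhl1 (15.2), while the medians of Atoh1 and Insm1 were 0. Gata3 exceeded Isl1 in 40 of 48 WT cells. Neighbours further down were less clearly ordered: Isl1 exceeded Lbh in 27 of 48 cells, Lbh exceeded Gfi1 in 25, Gfi1 exceeded Lhx3 in 31, Lhx3 exceeded Ikzf2 in 22, and Ikzf2 exceeded Barhl1 in 31. In CKO-labelled cells Isl1 took the second place with 119 CPM per kb, against 99.5 for Gata3, and was the higher of the pair in 11 of 17 cells. Among all genes with a count, the summed level of Pou4f3 per kb lay at percentile 99.5 in WT and 99.2 in CKO-labelled cells, and that of Barhl1 at 88.6 and 78.6. These percentiles are over 22822 genes in WT and 17885 in CKO-labelled cells, so they are not like for like between groups.

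**Figure D1:**
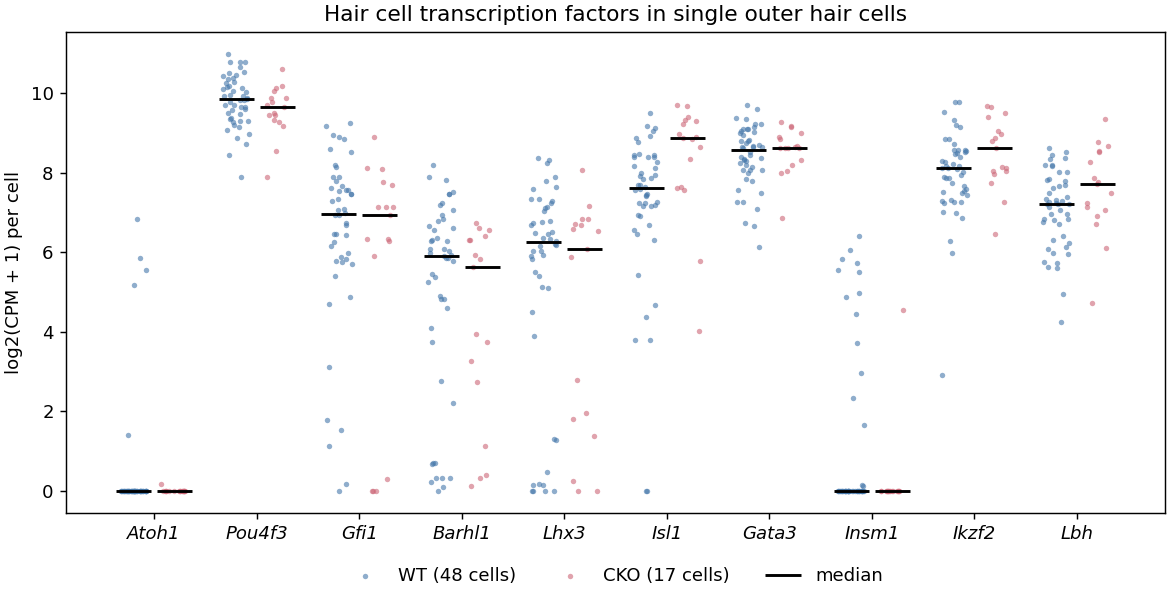
Expression of each factor in each cell as log2(CPM + 1), with WT cells in blue, CKO-labelled cells in red and black bars for medians. Pou4f3, Gata3, Ikzf2 and Lbh were counted in all 65 cells, Atoh1 and Insm1 were at 0 in most, and the Isl1 median of CKO-labelled cells lies above that of WT cells.

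Most of the set was abundant enough for a ratio: 9 of 10 genes reached 5 CPM in the higher group, and Atoh1, at 4.99 CPM, did not. Of these 9 genes 4 stood higher in the CKO-labelled group, as did 50.4% of all measured genes, and 5 stood lower, as did 49.6%. Their median log2 ratio of CKO over WT was -0.26. Over all 10842 genes that reached 5 CPM the median was 0.0092. Insm1 differed by at least 2-fold, 1 of 9 genes, beside 29.5% of all measured genes. The measured genes were not matched to the factors in level or in the share of cells with a count. Apart from Insm1, the factors were counted in most cells of both groups. The shares are thus not like for like, and no conclusion is drawn from their difference. At a limit of 1.5-fold, Isl1 alone stood higher (24.7% of all genes), and Barhl1 and Insm1 stood lower (23.3%). A ratio of sums can rest on a few cells, so the share of the 816 pairs of 1 CKO-labelled and 1 WT cell in which a given cell had the higher CPM is used as well. Isl1, at 75.1%, was the 1 gene of 9 with the CKO-labelled cell higher in at least 75% of pairs. That held for 0.756% of all genes. None of the 9 was higher in the WT cell in at least 75% of pairs, against 0.775% of all genes.

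**Figure D2:**
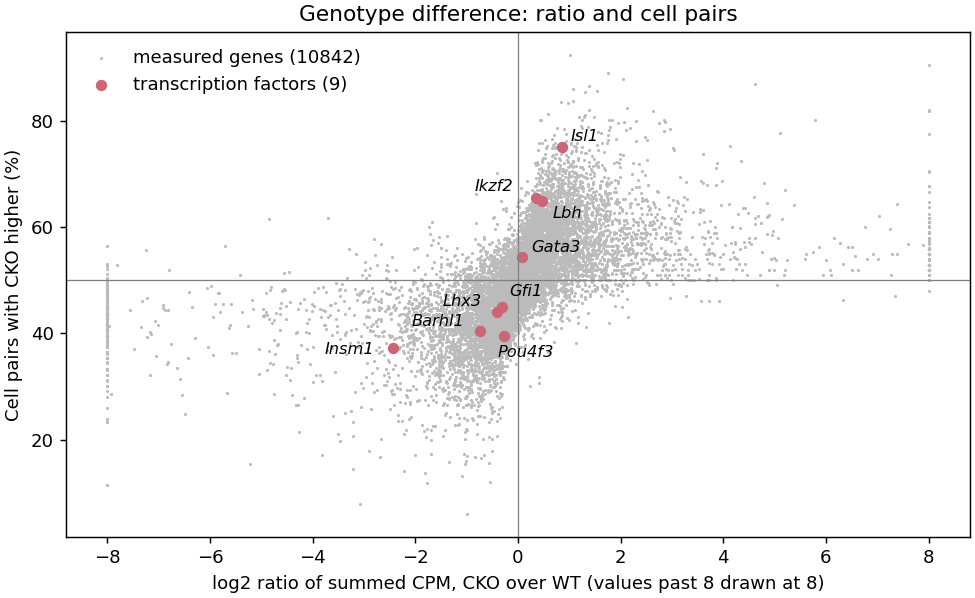
Log2 ratio of summed CPM (x axis) and percent of cell pairs in which the CKO-labelled cell was higher (y axis) for 10842 measured genes in grey and 9 transcription factors in red. Isl1 lies at 0.86 and 75.1%, while Insm1 lies far to the left at -2.43 with a pair share of 37.3%.

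Upstream sequence is shown for Isl1 and Barhl1, the well-detected members with the most positive and the most negative ratio, and for Atoh1, the member nearly without counts. Each is the 250 bases before the RefSeq start site on GRCm38.p6, read 5′ to 3′ on the gene's strand, at chr13:116309689-116309938 (minus) for Isl1, chr2:28916669-28916918 (minus) for Barhl1 and chr6:64728875-64729124 (plus) for Atoh1. Capitals mark the E-box, the site class bound by basic helix-loop-helix factors such as ATOH1, searched on both strands as CANNTG.
Isl1: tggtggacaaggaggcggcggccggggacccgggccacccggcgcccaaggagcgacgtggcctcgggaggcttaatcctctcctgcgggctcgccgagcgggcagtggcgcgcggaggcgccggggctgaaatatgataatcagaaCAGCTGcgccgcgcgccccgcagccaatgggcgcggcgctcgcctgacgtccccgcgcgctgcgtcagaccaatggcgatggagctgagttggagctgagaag
Barhl1: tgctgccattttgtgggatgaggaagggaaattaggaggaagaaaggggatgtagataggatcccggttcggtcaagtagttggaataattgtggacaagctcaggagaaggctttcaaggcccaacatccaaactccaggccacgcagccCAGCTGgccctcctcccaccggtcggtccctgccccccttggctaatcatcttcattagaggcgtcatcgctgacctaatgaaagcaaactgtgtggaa
Atoh1: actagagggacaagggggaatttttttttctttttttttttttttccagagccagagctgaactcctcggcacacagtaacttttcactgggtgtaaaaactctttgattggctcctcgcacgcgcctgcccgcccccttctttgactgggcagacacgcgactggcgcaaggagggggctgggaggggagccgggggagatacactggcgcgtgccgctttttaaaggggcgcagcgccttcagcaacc
Isl1 and Barhl1 each held 1 match, both of the form CAGCTG, with its first base at -103 and -99 from the start site. The Atoh1 window held none. Over 32851 RefSeq windows of this length, 66.2% held CANNTG and 13.0% held CAGCTG, which is 1 form of CANNTG. A match is a description of these letters and not a measured site. RefSeq windows were used for 7 of the 10 genes.

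Atoh1 (chromosome 6, 64729125 to 64731245, GRCm38, a single exon) was counted in few OHCs at this age. In WT cells it was counted in 5 of 48 (10.4%, exact binomial 95% interval 3.47% to 22.7%), at 1.65, 34.95, 45.8, 56.9 and 112.9 CPM. None of these cells was among WT cells 1 to 11, 4 were among cells 12 to 45 and 1 was among cells 46 to 48. In CKO-labelled cells it was counted in 1 of 17 (5.88%, 0.149% to 28.7%), with 2 counts. The log2 ratio of summed CPM was -8.96, with a counting interval of -12.01 to -7.11 that covers reads only. At a minimum of 10 counts the shares were 5 of 48 and 0 of 17, for which the exact upper limit is 19.5%. The shares of cells overlapped within their intervals, and the summed WT level came from 5 cells, 1 of which held 44.8% of the summed per-cell CPM. The Cre driver is written as an Atoh1 allele and was present in the CKO-labelled group only, so effects at Atoh1 and at Casz1 cannot be told apart for this gene.

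Pou4f3, a POU homeodomain factor required for hair cell survival, was counted in every cell and varied least in proportion apart from Gata3 in the CKO-labelled group. WT cells ran from 237 CPM over a median of 916 to 2021 CPM, and CKO-labelled cells from 238 over 806 to 1555 CPM. The groups overlapped over nearly their whole range, with 11 of 17 CKO-labelled cells below the WT median and 5 of 48 WT cells above the highest CKO-labelled cell. Summed levels were 973 CPM (95% counting interval 971 to 976) and 811 CPM (807 to 815), a log2 ratio of -0.26 (-0.27 to -0.26). The WT cell was higher in 60.4% of pairs. WT cells 12 to 45 had the highest level, 1051 CPM, and the log2 ratio against them was -0.37. Against cells 1 to 11 (839 CPM) the log2 ratio was -0.049, against cells 46 to 48 (789 CPM) it was 0.039, and between Xist-pattern cells it was -0.020.

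Gfi1, a zinc finger repressor whose loss leads to OHC death in mice, was lower in sum, while the medians of the groups were close. The WT range was 0 to 606 CPM with a median of 124, and the CKO-labelled range 0 to 474 CPM with a median of 121. Summed levels were 170 and 136 CPM, a log2 ratio of -0.32 (-0.34 to -0.30), and the WT cell was higher in 55.1% of pairs. Gfi1 had a count in 47 of 48 WT cells (97.9%, 88.9% to 99.9%), and among CKO-labelled cells in 14 of 17 (82.4%, 56.6% to 96.2%). With at least 10 counts required, these were 46 and 13 cells. The 4 CKO-labelled cells under 10 counts, numbers 5, 10, 15 and 16, had totals of 8909193 to 12522252, within the range of the other cells. The ratio turned with the WT cells used: it was 0.25 against cells 1 to 11 and 0.26 between Xist-pattern cells, but -1.56 against cells 46 to 48, which held 132 to 574 CPM. Exons of Gfi1 overlap an opposite-strand gene, and the strand setting is not given in the sources used here.

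Barhl1 (chromosome 2, 28907679 to 28916668, GRCm38), a homeobox gene whose loss in mice leads to progressive hair cell degeneration, was lower in CKO-labelled cells by sum. WT cells ran from 0 over a median of 59.2 to 293 CPM, and CKO-labelled cells from 0.080 over 48.2 to 106 CPM. The upper part of the WT range was missing from the other group: 12 of 48 WT cells exceeded the highest CKO-labelled cell. Summed levels were 71.2 and 42.8 CPM, a log2 ratio of -0.73 (-0.77 to -0.70), and the WT cell was higher in 59.6% of pairs. All 10 alternative settings kept this sign, from -0.85 against WT cells 12 to 45 to -0.20 against cells 46 to 48. Among measured genes this ratio lay at percentile 19.8, well inside the spread of all genes. Nearly every cell had a count (47 of 48 and 17 of 17), but 9 WT and 3 CKO-labelled cells had fewer than 10.

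Lhx3, a LIM homeodomain factor whose cochlear expression depends on POU4F3, ran from 0 over 75.2 to 330 CPM in WT cells and from 0 over 66.7 to 265 CPM in CKO-labelled cells. The groups overlapped, with 3 WT cells above the highest CKO-labelled cell. It was counted in 44 of 48 and 15 of 17 cells. Summed levels were 95.1 and 71.9 CPM, a log2 ratio of -0.40 (-0.43 to -0.38), and 55.9% of pairs had more in the WT cell. The ratio was -0.070 against WT cells 1 to 11, -0.43 against cells 12 to 45 and -1.17 against cells 46 to 48. Between Xist-pattern cells it was -0.50, where 1 of the 9 WT cells, at 330 CPM, held 34.1% of their summed per-cell CPM. Exons of Lhx3 also overlap an opposite-strand gene.

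Isl1 (chromosome 13, 116298281 to 116309689, GRCm38), a LIM homeodomain factor of developing hair cells and of cochlear neurons, stood apart from the other 9 genes in how many cells differed. WT cells ran from 0 over a median of 194 to 729 CPM. CKO-labelled cells ran from 15.2 over 470 to 835 CPM. The groups overlapped, but 14 of 17 CKO-labelled cells lay above the WT median, 11 above the upper WT quartile of 333 CPM and 2 above the highest WT cell. In the other direction 6 of 48 WT cells exceeded the CKO-labelled median. Summed levels were 235 CPM (234 to 236) and 426 CPM (423 to 429), 1.81-fold higher in CKO-labelled cells, a log2 ratio of 0.86 (0.85 to 0.87). In 75.1% of pairs the CKO-labelled cell had the higher CPM.

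Isl1 stood higher against each choice of WT cells. The log2 ratio was 0.70 against WT cells 1 to 11 (263 CPM), 0.96 against cells 12 to 45 (220 CPM) and 0.68 against cells 46 to 48 (267 CPM), comparisons that share the CKO-labelled cells. Between Xist-pattern cells it was 0.66 (443 against 280 CPM), where 71.9% of 135 pairs had more in the CKO-labelled cell. By the median of cells it was 1.28. Pair shares of Isl1 against the 3 runs, in order of cell number, were 72.2%, 76.3% and 72.5%, on both sides of the 75% limit. By size alone the ratio was not extreme, at percentile 82.2 of measured genes. Cochlear neurons also express Isl1. Of 15 neuronal genes 4 reached 5 CPM, Neurod1, Neurog1 and Neurod4 had no count in any cell, and the summed level of the list ran from 45.4 over a median of 326 to 1018 CPM in WT and from 74.7 over 411 to 880 CPM in CKO-labelled cells. Most of that sum was Map2, and the part of other cells' RNA in the Isl1 difference was not tested.

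**Figure D3:**
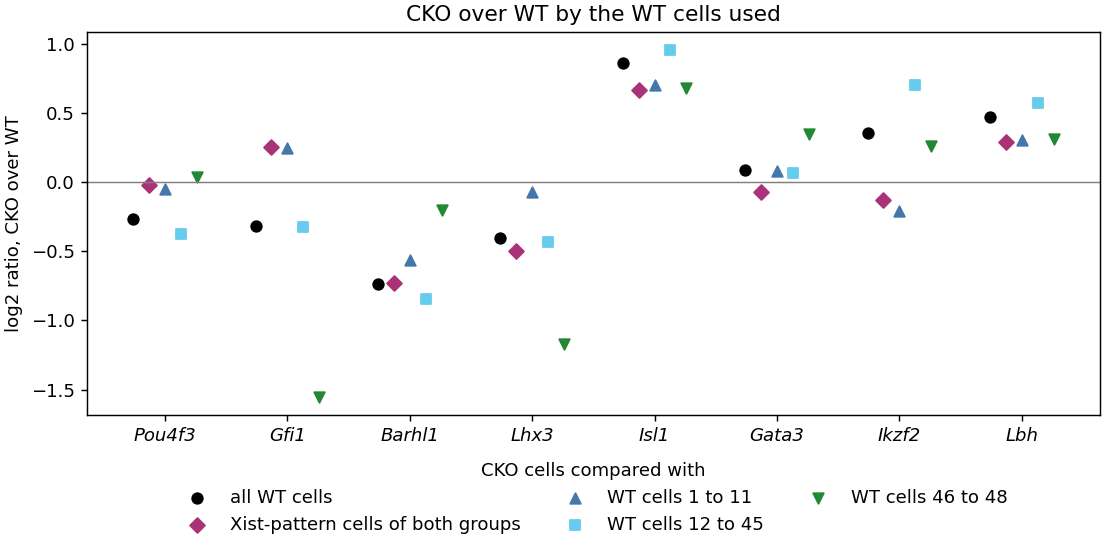
Log2 ratio of CKO over WT for 8 factors, by the WT cells used: all 48 (circles), Xist-pattern cells of both groups (diamonds) and the 3 runs of WT cell numbers (triangles and squares). Isl1 and Lbh lie above 0 and Barhl1 and Lhx3 below 0 in all 5 comparisons, while Pou4f3, Gfi1, Gata3 and Ikzf2 change sign. The comparisons share cells: all 48 WT cells include each run, and 8 of the 9 Xist-pattern WT cells are among cells 1 to 11.

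Gata3, a zinc finger factor needed for inner ear development and hearing, showed close levels in both groups. WT cells ran from 69.1 over a median of 379 to 827 CPM and CKO-labelled cells from 116 over 396 to 618 CPM, with the range of the second group lying inside that of the first. Summed levels were 381 and 405 CPM, a log2 ratio of 0.086 (0.074 to 0.098), and 54.3% of pairs had more in the CKO-labelled cell. The ratio was 0.35 against WT cells 46 to 48 and -0.073 between Xist-pattern cells. Supporting cells also express Gata3, and the part of their RNA in its level was not tested. Of 15 supporting cell markers 4 reached 5 CPM, Sox2 and Prox1 were counted in 2 and 1 WT cells and in no cell of the other group, and the summed list ran from 0.27 over 45.03 to 481 CPM in WT and from 0 over 11.8 to 184 CPM in CKO-labelled cells. Exons of Gata3 overlap 2 other genes, 1 on each strand.

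The 3 factors linked to the outer type went in different directions. Insm1 (chromosome 2, 146221921 to 146225020, GRCm38, a single exon) was counted in 15 of 48 WT cells (31.3%, 18.7% to 46.3%) and in a single one of 17 in the CKO-labelled group (5.88%, 0.149% to 28.7%). WT cells with a count reached 84.1 CPM, and the 1 CKO-labelled cell, number 14, held 344 counts or 22.5 CPM. Summed levels were 9.31 and 1.72 CPM, 5.41-fold lower in CKO-labelled cells, a log2 ratio of -2.43 (-2.60 to -2.28) that rests on that cell. At least 10 counts were found in 13 and 1 cells, and after each cell was thinned to the lowest total the gene was counted in 14 and 1. Insm1 had no count in WT cells 46 to 48 either, and 2 of the 9 Xist-pattern WT cells had a count, against 0 of 15 Xist-pattern CKO-labelled cells.

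The overlap of Atoh1 and Insm1 depended on the count required. With at least 1 count, 4 of the 5 Atoh1 cells of the WT group also had Insm1, of which cells 26 and 41 had 1 count of it. With at least 10 counts of each, 2 of the 5 had both. Either gene was found in 16 of 48 WT cells. CKO-labelled cell 14 was the only one of the 17 with either, and its Atoh1 rested on 2 counts. That cell had neither the Xist pattern nor its reverse, and its total of 15320549 counts was the highest of its group.

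Ikzf2, the gene of Helios, ran from 6.51 over a median of 274 to 881 CPM in WT cells and from 87.1 over 389 to 818 CPM in CKO-labelled cells, with 11 of 17 of the latter above the WT median. Summed levels were 316 and 403 CPM, a log2 ratio of 0.35 (0.34 to 0.36), and 65.4% of pairs had more in the CKO-labelled cell. The runs of WT cells differed among themselves: cells 1 to 11 held 466 CPM, cells 12 to 45 held 249 CPM and cells 46 to 48 held 337 CPM. The ratio was accordingly -0.21, 0.70 and 0.26, and -0.13 between Xist-pattern cells. Exons of Ikzf2 overlap an opposite-strand gene.

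Lbh (chromosome 17, 72918305 to 72941947, GRCm38) ran from 17.8 over a median of 147 to 389 CPM in WT cells and from 25.5 over 209 to 656 CPM in CKO-labelled cells. The groups overlapped, and 3 CKO-labelled cells exceeded the highest WT cell. Summed levels were 164 and 227 CPM, a log2 ratio of 0.47 (0.45 to 0.49), with the CKO-labelled cell higher in 64.8% of pairs. The ratio stayed positive in all 10 alternatives, from 0.29 between Xist-pattern cells to 0.58 by the mean of cells. Of the Xist-pattern pairs, 54.1% had more in the CKO-labelled cell. Within the CKO-labelled group, CPM of Lbh went down with total counts per cell (Spearman rho -0.65 over 17 cells). In WT cells that rho was 0.064 over 48 cells.

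**Figure D4:**
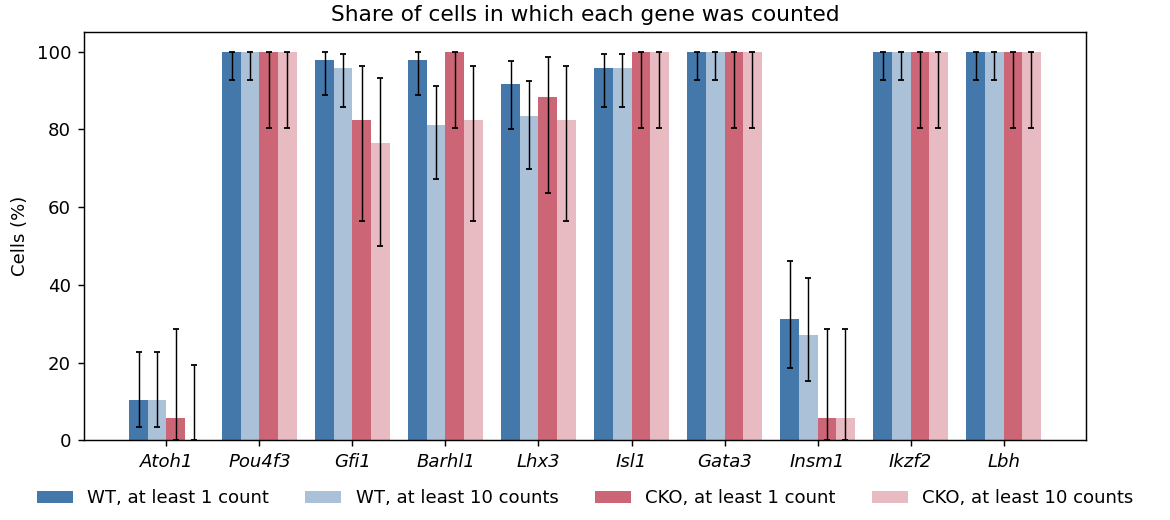
Percent of cells with at least 1 (dark bars) or at least 10 counts (pale bars) of each factor, with exact binomial 95% intervals. These treat cells as independent draws and cover no spread between animals. Pou4f3, Gata3, Ikzf2 and Lbh reached 100% in both groups, Atoh1 and Insm1 stayed under 32%, and Barhl1 and Lhx3 lost cells when 10 counts were required.

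At 10 counts or more, WT cells held 6 to 10 of the 10 factors and CKO-labelled cells 6 to 9, and 8 was the most common number (25 of 48 and 8 of 17 cells). Among the 8 factors other than Atoh1 and Insm1, at least 1 was under 10 counts in 18 of 48 WT cells (37.5%, 24% to 52.6%) and, in the CKO-labelled group, in 8 of 17 (47.1%, 23% to 72.2%). At least 2 were under 10 counts in 3 WT cells, where Lhx3 was always 1 of them, and in 2 CKO-labelled cells, numbers 5 and 10, which lacked Gfi1 and held 1 and 3 counts of Barhl1. Those 2 cells had totals of 12522252 and 12167428 counts and 7762 and 7748 genes detected. The 3 WT cells, numbers 13, 21 and 22, had totals of 7991427, 8954702 and 8371482 counts, in the lower part of the WT range, and 7755, 6411 and 5804 genes. The part of depth in these low counts was not tested. For comparison, genes with a mean of at least 20 CPM were taken without a minimum share of cells. The median gene of these had at least 10 counts in 66.7% of WT and 70.6% of CKO-labelled cells. It had at least 1 count in 79.2% and 76.5%.

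All 8 well-detected factors had a lower coefficient of variation across cells than the median gene, but the 2 sets were not filtered alike. The 8 factors had a count in at least 50% of cells of both groups. The genes behind that median had no such minimum, so no conclusion is drawn from the difference. In WT cells it was 0.42 for Pou4f3, 0.46 for Gata3, 0.59 for Lbh and 0.63 for Ikzf2, against 0.73 for Isl1, 0.92 for Lhx3, 0.93 for Gfi1 and 0.97 for Barhl1. The median over 6375 genes with a mean of at least 20 CPM was 1.22, with quartiles of 0.85 and 1.6. In CKO-labelled cells the values were 0.32 for Gata3, 0.38 for Pou4f3, 0.54 for Ikzf2, 0.57 for Isl1, 0.67 for Lbh, 0.92 for Barhl1, 0.94 for Gfi1 and 1.05 for Lhx3, beside a median of 1.18 over 6356 genes.

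Over the 28 pairs of the 8 well-detected factors, Spearman rho of CPM in WT cells ran from -0.21 to 0.32 with a median of -0.0091. The highest was Isl1 with Gata3, at 0.32 over 48 WT cells, 0.43 over WT cells 12 to 45 and 0.21 over 17 CKO-labelled cells. Pou4f3 and Gfi1, a factor and a gene that depends on it, gave 0.00033 in WT and 0.34 in CKO-labelled cells. In CKO-labelled cells rho ran from -0.47 (Lhx3 with Isl1) to 0.42 (Barhl1 with Ikzf2), where 17 cells leave a wide spread. These are descriptions across cells of 1 sample per group, whose total counts differ from cell to cell.

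**Figure D5:**
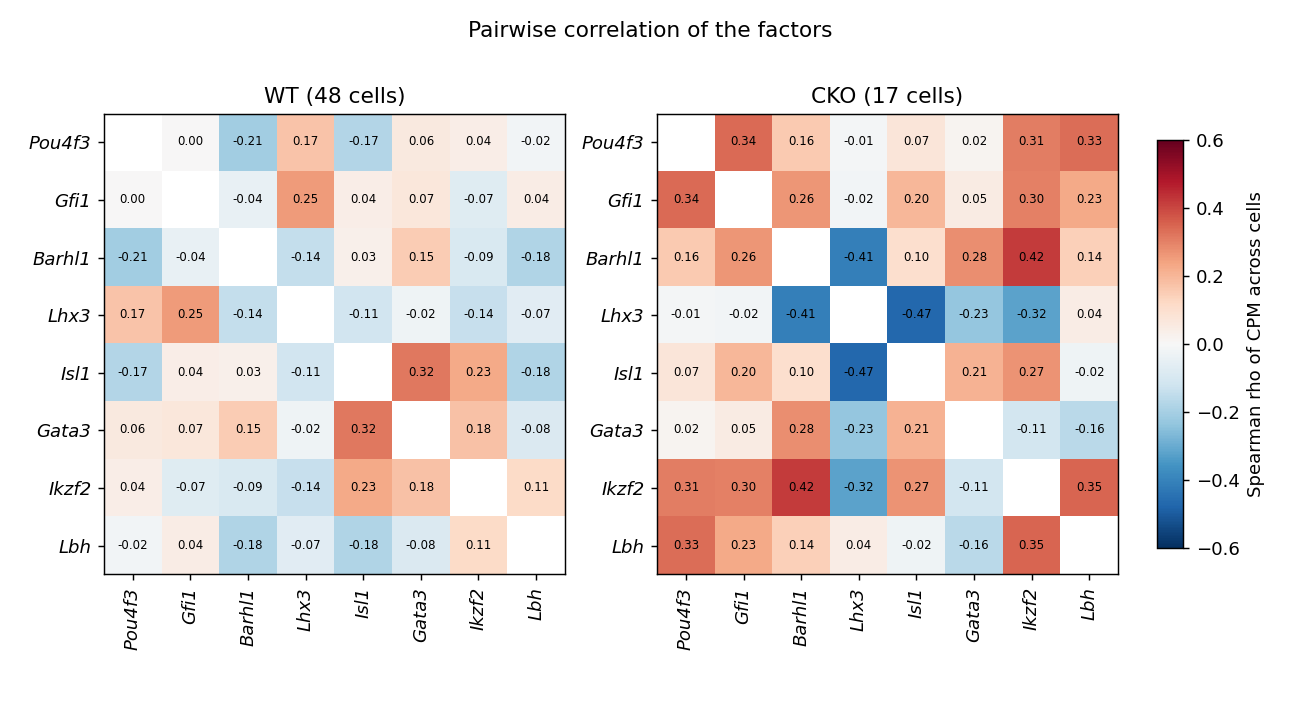
Spearman rho of CPM between pairs of 8 factors across 48 WT cells (left) and 17 CKO-labelled cells (right), on a colour scale from -0.6 to 0.6. WT values lie between -0.21 and 0.32, and the wider range on the right, -0.47 to 0.42, comes with fewer cells.

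Genes most like each factor were ranked by the lower of the rho values in the WT and the CKO-labelled group, over 4658 named genes with at least 20 CPM and a count in at least 50% of cells of both groups, without genes known only by a model or clone symbol. The top 3 genes of each factor, 24 in all, reached 0.33 to 0.45. First in rank were Fam189a2 for Pou4f3 (0.36), Sf3a3 for Gfi1 (0.41), Polr2c for Barhl1 (0.43), Fnip1 for Lhx3 (0.45), Tomm40 for Isl1 (0.44), H2aw for Gata3 (0.44), Crkl for Ikzf2 (0.42) and Ddx55 for Lbh (0.39). The others were Tmed3, Magi3, Safb, Fads2, Mdh2, Rev3l, Eftud2, Myo15, Atf6b, Psmg1, Bag6, Chpf, Strada, Tmem199, Atp5l and Bola2. Within WT cells 12 to 45 alone 1 of the 24 pairs stayed in a top 3, and with Pearson r of log2(CPM + 1) 2 did.

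Genes that work with or against these factors were taken from lists. On a list of 32 other hair cell regulators 26 reached 5 CPM. In the CKO-labelled group 15 stood higher and 11 lower, beside 50.4% and 49.6% of all measured genes, and the median log2 ratio was 0.17. By at least 2-fold 2 stood higher and 3 lower, beside 15.1% and 14.5% of all genes. Ldb1, whose product bridges LIM domain proteins such as ISL1 and LHX3, stood at 68.0 against 23.6 CPM in WT (log2 ratio 1.53), with per-cell medians of 49.9 and 3.98 CPM. Of all pairs 71.9% had more Ldb1 in the CKO-labelled cell, but 43.1% of those against WT cells 46 to 48, and exons of Ldb1 overlap an opposite-strand gene. Id1, of the family that blocks basic helix-loop-helix factors, was at 5.95 against 0.794 CPM, from 4 cells in each group. Its relatives Id2 and Id3, named after their values were seen, were at 186 against 93.5 CPM and 43.8 against 22.2 CPM. Lin28b, an RNA-binding protein of early development, was at 1.34 against 11.8 CPM (3 and 11 cells), and Zfp503 at 14.2 against 37.3 CPM. Against WT cells 46 to 48, Lin28b (0 CPM there), Zfp503 (0.028 CPM) and Id3 (57.8 CPM) went the other way.

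Of 19 cofactors of the 10 proteins 17 reached 5 CPM, 5 higher and 12 lower (median log2 ratio -0.27), beside 50.4% and 49.6% of all measured genes. The split was 7 and 10 between Xist-pattern cells (median -0.14) and against WT cells 1 to 11 (-0.069), and 8 and 9 against cells 46 to 48 (-0.0093). Rcor1, a partner of the repressors GFI1 and INSM1, was at 14.8 against 48.5 CPM and was counted in 9 of 17 and 38 of 48 cells. WT cells 46 to 48 held 0.77 CPM of Rcor1, less than the CKO-labelled group. Zfpm1 was at 1.29 against 7.18 CPM and Mta1 at 9.60 against 2.16 CPM, each from few cells. Lmo1, a LIM-only protein gene with no overlapping exons, was outside the rule for named genes and was singled out after its values were seen. WT cells ran from 0 over 329 to 878 CPM and CKO-labelled cells from 72.8 over 177 to 469 CPM. The WT cell was higher in 78.8% of pairs, in 90.4% between Xist-pattern cells, and in 94.7%, 73.0% and 86.3% for the 3 runs in order of cell number.

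A list of 9 genes linked to POU4F3, Gfi1 and Lhx3 among them, does not separate genes that POU4F3 raises from genes that it lowers. Of these 9 genes 8 reached 5 CPM. In the CKO-labelled group 2 stood higher and 6 lower, beside 50.4% and 49.6% of all measured genes. The median log2 ratio was -0.33, beside 0.0092 over all measured genes. Caprin1 was at 57.3 against 91.4 CPM and Nr2f2 at 69.4 against 93.0 CPM, while the neurotrophin gene Bdnf was at 168 against 117 CPM. The median log2 ratio of this list was 0.053 when Xist-pattern cells were compared, -0.047 against WT cells 1 to 11 and -0.48 against cells 46 to 48. Of the 4 measured neuronal genes, a class that GFI1 restrains in hair cells, 2 were higher and 2 lower. Nefl was at 51.0 against 32.1 CPM, Map2 at 317 against 243, Nefm at 31.2 against 40.96 and Ina at 4.34 against 10.1.

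Genes downstream in the outer and inner types were mixed, where 50.4% of all measured genes stood higher and 49.6% lower. All 12 OHC-enriched genes, Ikzf2 and Lbh included, were measured, 7 higher and 5 lower (median 0.14, and -0.024 against WT cells 1 to 11). Slc26a5, whose expression was a condition for picking, was among the 7. Ppp1r17, a gene that Helios activates, was at 33.1 against 53.0 CPM, Strip2 at 977 against 1410 and Dnm3 at 424 against 306. For Ppp1r17 the WT cell was higher in 53.9% of pairs. Its Xist-pattern levels were 37.4 against 38.9 CPM, and WT cells 46 to 48 held 1.16 CPM. Strip2 and Dnm3 kept their direction against each run. On the list of 13 genes enriched in IHCs 5 reached 5 CPM, 2 with a higher and 3 with a lower level (median -0.20, and 0.42 against WT cells 46 to 48). Atp2a3 was at 0.485 against 43.7 CPM, Otof at 81.6 against 170, Slc17a8 at 17.1 against 12.1 and Calb2 at 1431 against 1647. Otof and Calb2 went the other way against WT cells 46 to 48 (11.1 and 1071 CPM), as did Slc17a8 against cells 1 to 11 (20.0 CPM). Atp2a3 kept its direction against each run.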

How the data were processed

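The file the authors deposited holds raw counts, as whole numbers, for each gene symbol and each of 65 cells. Per the submitters' processing notes, HISAT2 2.2.1, StringTie 2.2.1 and featureCounts 2.0.1 were used with mm10. Which step each tool served, the gene models, strandedness and filters were not given in the sources used here. Per the labels' protocols, cDNA came from the Smart-Seq HT kit. A protocol text shared by all samples names inner hair cells and induced OHCs; titles and design name OHCs and were followed.

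CPM of a group is its summed count of a gene over its summed total (7458126 to 17107710 counts in single cells). Genes with at least 5 CPM in either group entered counts of genes. Ratios carry exact conditional intervals and shares exact binomial intervals, at 95%. Intervals of ratios cover the counting of reads alone. Without molecular identifiers several reads can come from 1 molecule, so these intervals are too narrow even for that. Intervals of shares treat cells as independent draws, although cells of 1 sample are not replicates. Neither kind covers a spread between animals. A group without counts was set to 3 counts in all, so its ratio is a bound, and no ratio was taken where both groups had 3 or fewer. In pairs of cells, ties counted as 0.5. Positions, merged exon lengths and overlaps came from GENCODE M21 (GRCm38), in which 96.4% of symbols were found. Upstream sequences came from RefSeq (GRCm38.p6).

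The factors and lists were chosen with earlier results of these data known, as were the runs of WT cells and the Xist pattern. Named were all 10 factors, up to 4 genes per list with the largest absolute log2 ratio, the 3 genes most like each factor, and Casz1. One such list gene is not reported here. Alternatives were the mean or median of cells, scaling by edgeR 4.0.16 TMM or by DESeq2 1.42.0 median-of-ratios, totals that leave out mitochondrial and ribosomal protein genes, omission of the highest cell per gene, other count or CPM minimums, thinning to 7458126 counts, and subsets of cells. The ratio code was tested on simulated data. No cell was removed and no doublet caller was run, since cells were picked singly.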

Additional observations from a re-analysis of the deposited data

How the results depend on the processing

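No paired analysis was possible because a cell's number is only its name and the genotypes were compared without a test. Of 97 log2 ratios of single factors under alternatives, 7 had the other sign: 2 each for Gfi1 and Ikzf2 and 1 each for Pou4f3, Gata3 and Insm1. Isl1 ran from 0.66 to 1.28 and Barhl1 from -0.85 to -0.20 over 10 alternatives each. Insm1 was 4.38 against WT cells 46 to 48, which held no count, so that value is a bound set by 1 CKO-labelled cell. Without that cell and the highest WT cell it was -8.95, also a bound. The number of factors at least 2-fold apart, 1 of 9, became 3 against WT cells 46 to 48 and 3 with a 1.5-fold limit. The median of the factors was 0.013 by medians of cells and 0.26 against WT cells 46 to 48. The neuronal list had a median of -0.0043 with all cells and 1.44 against WT cells 46 to 48. Of 24 most alike genes, 1 stayed within a top 3 by rho in WT cells 12 to 45 and 2 by Pearson r. The cause of these shifts was not tested. Every log2 ratio shifted by -0.034 with TMM, by -0.033 with median-of-ratios scaling and by -0.031 with the smaller total. Factors with a median of 0 got no ratio of medians, and Atoh1 got none against WT cells 1 to 11. The number of cells limits the shares near 0, since 0 of 17 cells allows up to 19.5%.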

Other observations

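Most relatives of the factors were at low levels in these OHCs. The list of 24 paralogues was written after the data had been seen. Of these, 9 had no count in any cell, among them Gfi1b, Lhx1 and Lhx2, and 4 reached 5 CPM in either group. Isl2, the closest relative of Isl1, stood at 12.6 CPM in WT and 6.32 CPM in CKO-labelled cells and was counted in 19 of 48 and 5 of 17 cells, the opposite direction to Isl1. Lhx4, the closest relative of Lhx3, was at 2.39 and 6.22 CPM from 4 and 2 cells. Insm2 was at 7.72 and 19.2 CPM from 14 and 4 cells, with the CKO-labelled cell higher in 48.04% of pairs. Ikzf5 was at 10.0 and 11.2 CPM from 29 and 11 cells. Pou4f1, which is known from cochlear neurons, was at 1.78 and 4.03 CPM from 9 and 4 cells. Gata2 had no count in 48 WT cells and 3.64 CPM from 3 CKO-labelled cells. Apart from Ikzf5, none of the relatives named with a count was found in more than 19 of 48 WT cells.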
